A study of Mus musculus and Rattus norvegicus with 35 samples.

Results

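The sodium leak channel complex was followed through its 3 genes, Nalcn, Unc79 and Unc80, and through every circular RNA assigned to them. The members were taken by symbol: the 3 gene rows of the mouse table of 24601 genes, 2 gene rows of the rat table of 22409 genes, which has no Unc80 row, 41 of 28482 mouse circular RNAs and 25 of 18075 rat circular RNAs, 71 rows in all. The mouse circular RNAs divided into 19 of Nalcn, 15 of Unc79 and 7 of Unc80, and the rat ones into 13 of Nalcn and 12 of Unc79.

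The tissues were those of C57BL/6 mice and Sprague Dawley rats. In mouse, the brain, heart, liver, lung and testis were sampled at 14 weeks (1 library each) and at 20 weeks (2 libraries each), and mouse hippocampus at embryonic day 18 (E18) and postnatal days 1, 10 and 30 (P1, P10, P30; 2 libraries each). At 4 weeks of age there was 1 library each of mouse hippocampal homogenate, mouse hippocampal synaptosomes (a fraction of pinched-off synaptic endings), and microdissected CA1 neuropil (the layer of dendrites and axons) and CA1 somata (the cell body layer) of mouse and of rat. Dissociated rat hippocampal neurons, cultured for 28 days, received water (control) or 40 µM bicuculline for 12 h, with 2 libraries each; bicuculline blocks GABA-A receptors and so raises network activity. These libraries were depleted of ribosomal RNA, and 1 further library of 14-week mouse brain was made with oligo-dT beads, giving 28 mouse and 6 rat libraries. Nothing in the labels says that libraries of a group came from separate animals or cultures, so p-values measure the spread between these libraries, which may be technical.

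NALCN is the pore of a sodium-permeable channel that is not opened by voltage steps in the way of its relatives, the voltage-gated sodium and calcium channels, with which it shares a four-domain architecture. It carries a steady inward leak current that sets the resting potential of neurons against the outward leak of potassium channels. UNC79 and UNC80 are very large auxiliary proteins that join the channel in neurons, and UNC80 links it to Src kinases and to signalling from neuropeptide receptors. A circular RNA (circRNA) is made when the end of an exon is spliced back to the start of an upstream exon, and it is recognised by the reads that cross this back-splice junction. Having no free ends and no poly(A) tail, circRNAs are long-lived and are lost on oligo-dT beads.

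The most abundant circRNA of the complex joined the end of exon 7 of Unc79 to the start of exon 2 (chr12:104229560-104260086, mm9, plus strand). The join is shown with both exons whole because this circle held 680 of the 882 Unc79 back-splice reads in the 27 rRNA-depleted mouse libraries, or 77.1% (exact 95% binomial interval 74.2 to 79.8). The letters come from the reference transcript in GENCODE M21 (GRCm38), to which the exons were matched by their lengths. The 130 bases of exon 7 are in lower case and the 121 bases of exon 2 in capitals, so the change of case is the back-splice junction.
Unc79 exon 7 joined to exon 2: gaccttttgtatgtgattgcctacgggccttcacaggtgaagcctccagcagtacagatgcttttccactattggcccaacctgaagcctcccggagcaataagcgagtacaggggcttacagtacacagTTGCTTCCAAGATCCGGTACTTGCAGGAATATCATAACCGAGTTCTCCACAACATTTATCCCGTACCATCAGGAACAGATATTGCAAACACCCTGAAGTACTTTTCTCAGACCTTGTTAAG

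The whole circle of 6 exons is 876 nt long and lies wholly in coding sequence. Its length is a multiple of 3, and no stop codon of the host reading frame occurs around it, back-splice junction included; this describes the letters only, and translation was not measured. The back-splice junctions of the leading circRNAs of Unc79 and Nalcn are shown to compare which exon ends were joined. The last 15 bases of the last exon are in lower case and the first 15 bases of the first exon in capitals.
Unc79 exons 2 to 7: gcttacagtacacagTTGCTTCCAAGATCC
Unc79 exons 5 to 7: gcttacagtacacagTGGGTTCCTCCGGGA
Unc79 exons 2 to 5: acacctctaacccagTTGCTTCCAAGATCC
Unc79 exons 36 to 40: cgagcgttcacaaagCATGATGGTTCCAGG
Nalcn exons 2 to 6: tgacacaaagccaggACTGTGGTTTTGTAC
Nalcn exons 16 and 17: tacattgatcaaaaaCTAAAGCAAAGTGAA
Nalcn exons 2 to 7: gctttaatgagatagACTGTGGTTTTGTAC
Nalcn exons 16 to 18: cacaaaaatcttaagCTAAAGCAAAGTGAA

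The repeated runs show that a few exon ends took part in most of the circles. The start of Unc79 exon 2, at position 104229560, opened 5 of the 15 mouse circRNAs and 83.7% of their reads. The end of exon 7, at 104260086, closed 4 circRNAs with 88.5% of the reads. On the minus strand, the start of Nalcn exon 2, at position 123999211, opened 7 of 19 circRNAs and 62.0% of the reads.

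Nalcn circles were smaller in number of reads and more varied. Exons 2 to 6 of 44 (chr14:123991904-123999211, minus strand, 683 nt, 94.3% of it coding) held 123 of 305 reads, or 40.3%. Exons 16 and 17 (chr14:123769160-123770836, 279 nt) held 60 reads, exons 2 to 7 (chr14:123971162-123999211, 838 nt) 41 reads and exons 16 to 18 (chr14:123747984-123770836, 353 nt) 17 reads. The fifth, chr14:123971197-123999211, had 12 reads and could not be placed on the reference exons. Of the 19 Nalcn circRNAs 13 had fewer than 10 reads over all rRNA-depleted mouse libraries.

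The Unc79 circles next in reads were exons 5 to 7 (chr12:104249410-104260086, 279 nt, 95 reads), exons 2 to 5 (chr12:104229560-104249502, 690 nt, 32 reads), exons 36 to 40 of 49 (chr12:104379982-104387291, 553 nt, 24 reads), and with 12 reads each exons 2 to 4 (chr12:104229560-104240186, 597 nt) and exons 2 to 11 (chr12:104229560-104288133, 1100 nt). The remaining 9 circRNAs had fewer than 10 reads. Unc80 had 77 reads in all. Its leading circles were exons 14 to 18 of 65 (chr1:66568029-66577427, 710 nt, 30 reads) and chr1:66518550-66537705 (1149 nt, 21 reads), whose exons could not be placed on the reference transcript. Exons 24 and 25 (chr1:66636769-66640372, 270 nt) had 8 reads, chr1:66529815-66537705 had 7 and chr1:66596302-66601673 had 5. By back-splice reads Unc79 ranked 55th, Nalcn 261st and Unc80 1108th of 5991 mouse host genes, of which the median gave 2 circRNAs.

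The same exons were circularised in rat. Matched on the ordered lengths of their exons, 10 circRNAs were in both species, 6 of Nalcn and 4 of Unc79. The rat circle of Unc79 exons 2 to 7 (chr6:136068612-136098663, rn5) held 174 of 255 reads, or 68.2%, and ranked first as in mouse. Exons 2 to 5 (chr6:136068612-136088456) followed with 40 reads, exons 5 to 7 (chr6:136088364-136098663) with 18 and exons 2 to 4 (chr6:136068612-136078749) with 9. These 4 circles held 94.5% of the rat and 92.9% of the mouse Unc79 reads.

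Rat Nalcn gave only 26 reads over 13 circRNAs. Its leading circle was again exons 2 to 6 (chr15:113416126-113426238, 6 reads), and the other shared circles were exons 8 to 11 (chr15:113323877-113351072, 4 reads), exons 2 to 7 (chr15:113400314-113426238, 3 reads), exons 16 and 17 (chr15:113201962-113203602, 2 reads), exons 8 to 13 and exons 8 to 10 (1 read each). Exons 12 to 15 (chr15:113225672-113289638) had 2 reads in rat and were not in the mouse table. In mouse the circles of exons 8 to 11, 8 to 13 and 8 to 10 had 10, 8 and 6 reads. The 6 shared circles held 81.3% of the mouse and 65.4% of the rat Nalcn reads. Among rat hosts Unc79 ranked 32nd and Nalcn 621st of 4745.

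**Figure D1:**
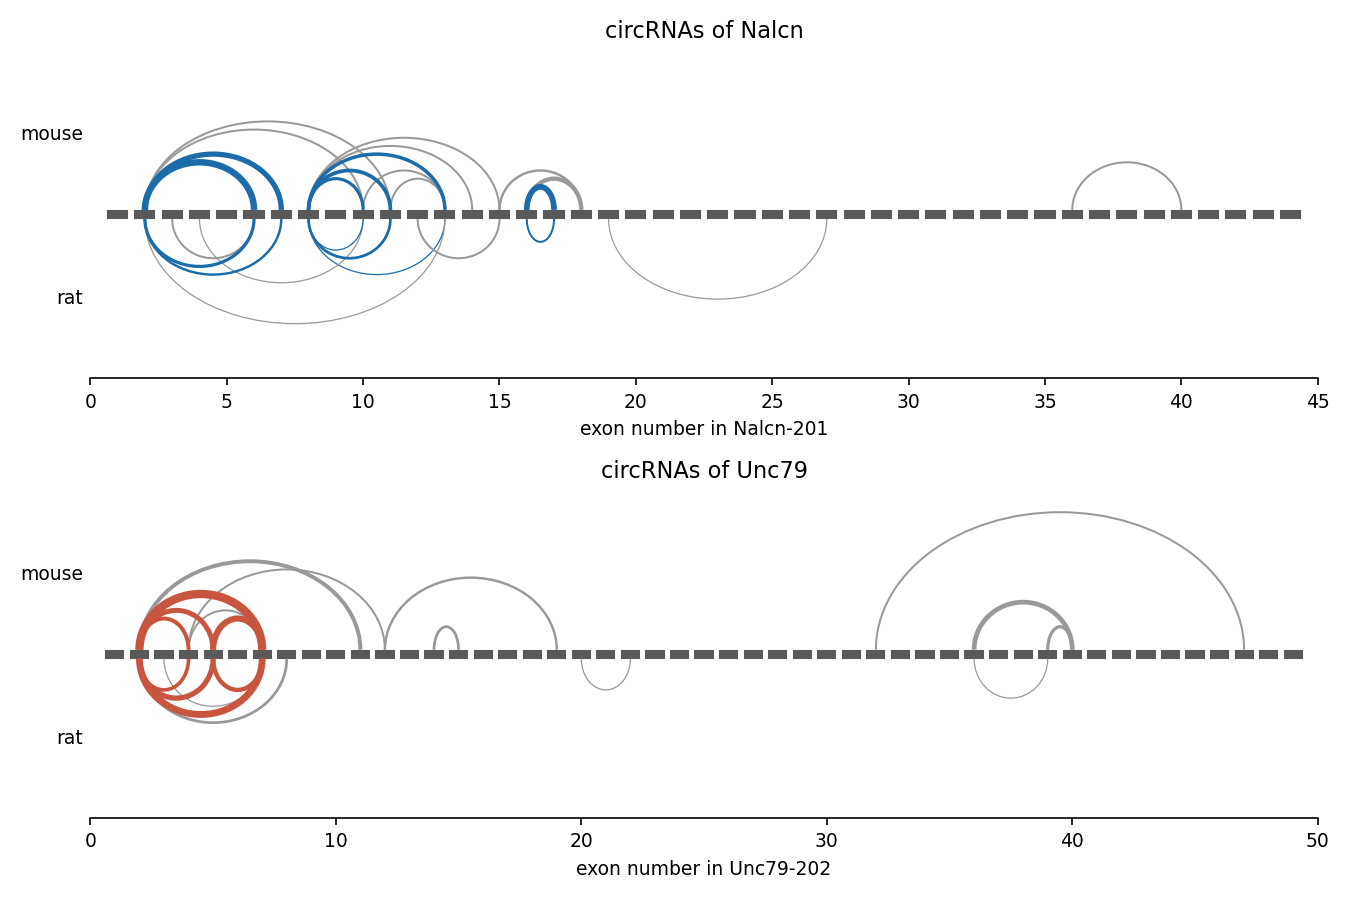
Back-splices of Nalcn (top) and Unc79 (bottom) drawn over the exons of the mouse reference transcript, numbered on the x axis; each arc joins the first and last exon of 1 circRNA, mouse above and rat below, with a line width that grows with the log10 of its reads, and coloured arcs are circles with the same exon lengths in both species. The arcs crowd between exons 2 and 18 of Nalcn and exons 2 and 7 of Unc79. Drawn are 15 mouse and 11 rat circRNAs of Nalcn and 12 mouse and 8 rat circRNAs of Unc79. A further rat circRNA of Unc79 was placed on another transcript and is not drawn.

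Depth and sample identity were examined before the comparisons. CircRNA levels are back-splice reads scaled by library size (RPM). The 27 rRNA-depleted mouse libraries held 1231 to 43523 back-splice reads, each worth 0.448 to 2.14 RPM, and the 6 rat libraries 8879 to 24727 reads worth 0.763 to 1.05 RPM. Gene levels are in TPM, a unit that corrects for transcript length and allows levels to be compared between genes; their depth is unknown. Each tissue carried its own markers: the 6 neuron markers in the table summed to 3240 to 3476 TPM in brain and at most 13.0 TPM in the other tissues, and the 4 markers each of heart muscle, hepatocytes, lung epithelium and male germ cells summed to 27775 TPM or more in their own tissue. Synaptosomes summed to 2038 TPM for neuron markers against 4339 TPM in homogenate. Each of the 6 was lower there, and Snap25 (562 against 2421 TPM) made up most of the difference.

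All 3 genes were brain genes among the 5 tissues. Nalcn, the pore, stood at 61.8 TPM in the 14-week brain library and at 83.5 and 82.6 TPM in the 20-week ones (mean 76.0 ± 12.2, SD, n = 3). Testis had 1.35, 1.24 and 2.17 TPM, heart 1.13, 0.855 and 0.971 TPM, lung 0.395, 0.960 and 0.755 TPM, and liver 0.0610, 0.0369 and 0.0209 TPM. Every brain library lay above every other library.

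Unc79 was lower in brain than its partners, at 28.2, 31.5 and 31.6 TPM (30.4 ± 1.97). Lung was its second tissue, with 2.31, 3.79 and 3.45 TPM, followed by testis with 0.750, 0.921 and 1.26 TPM. Liver (0.0836, 0.0352 and 0.0191 TPM) and heart (0.0296, 0.0391 and 0.0672 TPM) overlapped.

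Unc80 was the most abundant of the 3 in brain, at 171, 117 and 127 TPM (138 ± 29.0). Testis followed with 4.45, 3.61 and 3.37 TPM and lung with 0.599, 0.557 and 1.33 TPM. Heart (0.384, 0.0900 and 0.0687 TPM) and liver (0.00802, 0.0101 and 0.169 TPM) overlapped.

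**Figure D2:**
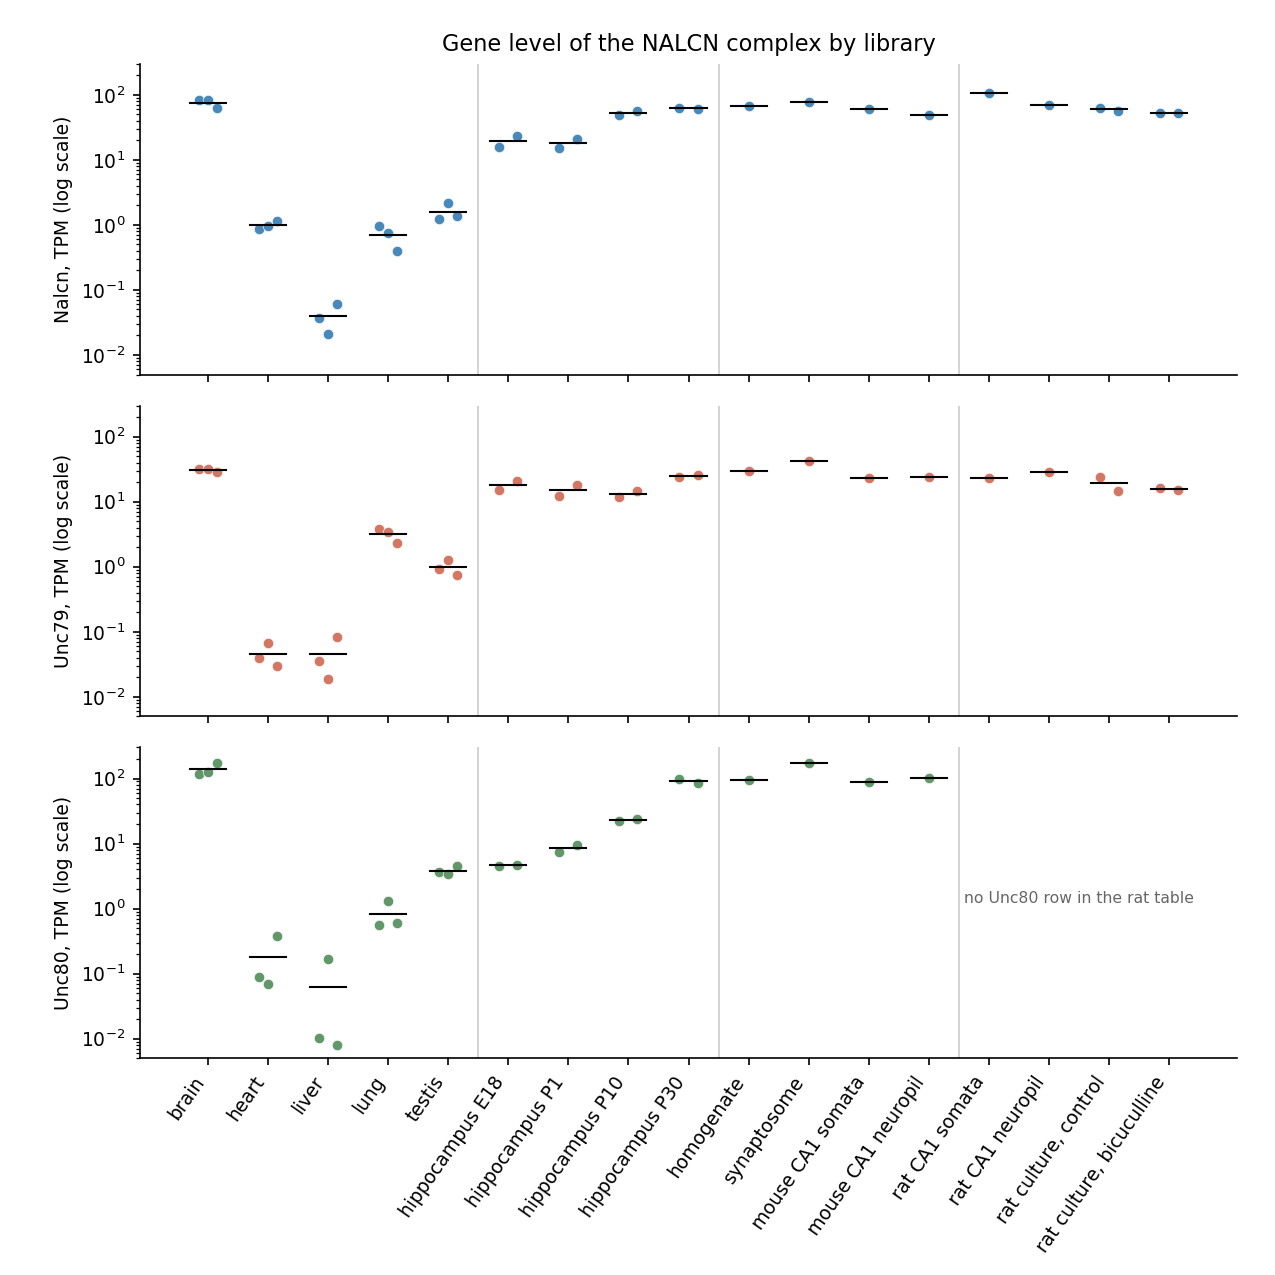
TPM of Nalcn, Unc79 and Unc80 on a log axis in each library (points) with the group mean (line); groups on the x axis are mouse tissues at 14 and 20 weeks, hippocampal stages, 4-week hippocampal fractions and rat samples, and the poly(A) library is left out. Brain exceeds the other tissues for each gene, and Unc80 rises from 4.57 and 4.71 TPM at E18 to 98.0 and 85.0 TPM at P30.

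The difference between brain and the mean of the other 4 tissues, on the log2(TPM + 1) scale, was 5.47 (SE 0.15) for Nalcn, 4.18 (SE 0.13) for Unc79 and 6.25 (SE 0.17) for Unc80. This scale understates the change of low genes. The limma test, adjusted over 18966 genes by Benjamini-Hochberg (threshold 0.05), gave 7.65e-13, 2.45e-12 and 5.42e-13, so 3 of 3 members passed, where 45.4% of all genes tested were higher in brain. The median of all genes was 0.34. Scaling the libraries to equal medians turned that median to -0.48 and the split of calls from 8612 higher and 5307 lower to 4594 higher and 9342 lower, while the members stood at 4.64, 3.36 and 5.43. Within the 20-week libraries alone the 3 differences were 5.57, 4.18 and 6.11.

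The order of the tissues below brain was not the same for the 3 genes. For Nalcn, testis and heart (adjusted p = 0.105 by limma) and heart and lung (0.328) did not differ beyond their spread, while lung exceeded liver (0.00475). For Unc79, lung exceeded testis (3.62e-05) and testis exceeded liver (1.85e-04), where heart and liver did not differ (adjusted p = 1). Unc80 was higher in testis than in lung (2.96e-05) and higher in lung than in heart (0.0230), and heart and liver did not differ detectably (0.640). Of all genes, 77.2% differed between lung and testis, 58% between heart and lung, 71.3% between liver and lung, 70.3% between heart and testis, 69.3% between liver and testis and 51.1% between heart and liver. In bulk tissue, fewer cells of a type and less RNA per cell cannot be told apart.

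The circRNAs of the complex were likewise concentrated in brain. Those of Nalcn summed to 34.1 RPM (29 reads) at 14 weeks and to 24.1 RPM (13 reads) and 23.0 RPM (12 reads) at 20 weeks. Those of Unc79 reached 56.4, 87.1 and 97.7 RPM from 48, 47 and 51 reads, and those of Unc80 11.8, 13.0 and 5.75 RPM from 10, 7 and 3 reads. No back-splice read of the 3 genes occurred in any of the 3 liver or 3 lung libraries. Lung transcribed Unc79 at over 2 TPM, but 1 read was worth 1.24 to 2.10 RPM there, so a low circRNA level could go unseen.

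Outside brain there were 4 Nalcn reads over heart and testis and 2 reads each of Unc79 and Unc80 in testis. Pooled over libraries, brain exceeded the other 4 tissues 412-fold for Unc79 circRNAs (exact 95% interval 112 to 3435), 76.2-fold for Nalcn (28.1 to 290) and 56.5-fold for Unc80 (13.7 to 498); intervals and floors here cover counting error only. On the log2(RPM + 1.18) scale, where 1.18 RPM is the median worth of 1 read, the differences were 4.27 (SE 0.30), 5.94 (SE 0.28) and 3.06 (SE 0.27) for Nalcn, Unc79 and Unc80 (limma, adjusted p = 2.19e-08, 7.48e-10 and 2.37e-07 over 3095 hosts). All 3 passed, as did 59% of hosts in that direction. Unc79 and Unc80 had reads in only 2 libraries outside brain, so their sums reached the filter of 3 libraries through brain and had to differ, and this count supports nothing. The brain libraries also held more circRNA in total, 25200 to 30723 RPM against 1287 to 16727 RPM in the other tissues. With totals scaled equal the members stood at 2.18, 3.76 and 1.33 and passed, but for Unc79 and Unc80 the limit of the filter holds there too.

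Relative to its gene level, Unc79 gave much circRNA. Its ratio of summed circRNA RPM to TPM was 2.00 in the 14-week and 2.76 and 3.09 in the 20-week brain libraries, the 14th highest mean of 1595 hosts with reads and at least 1 TPM in all 3 libraries, where the median was 0.159. Nalcn had ratios of 0.551, 0.289 and 0.278 and Unc80 0.0686, 0.111 and 0.0453. The partner with the lowest gene level in brain thus had the highest circRNA level, and the one with the highest gene level the lowest circRNA level. RPM and TPM count different reads, so the ratio ranks hosts and is no share of transcripts.

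Among single circRNAs, 7 of the 41 had reads in at least 3 tissue libraries and could be tested, and 3 of these had reads in brain alone. All 7 passed, where 47.7% of 5594 circRNAs were higher in brain; having reached the filter through brain, they had to differ, and the count supports nothing. Unc79 exons 2 to 7 had 48.2, 76.0 and 86.2 RPM in brain, 1 read in each of 2 testis libraries, and a difference of 5.74 (SE 0.25). Nalcn exons 2 to 6 had 17.6, 13.0 and 9.58 RPM in brain, with 1 read in a heart and 1 in a testis library (3.44, SE 0.27). The other 5 were Nalcn exons 2 to 7 (2.10), Unc80 exons 14 to 18 (2.04), Unc80 chr1:66518550-66537705 (1.78), Unc79 exons 5 to 7 (1.71) and Unc79 exons 36 to 40 (1.25). In the 20-week libraries alone 3 circRNAs could be tested and passed. Without any 1 of the 3 brain libraries 4 circRNAs passed.

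**Figure D3:**
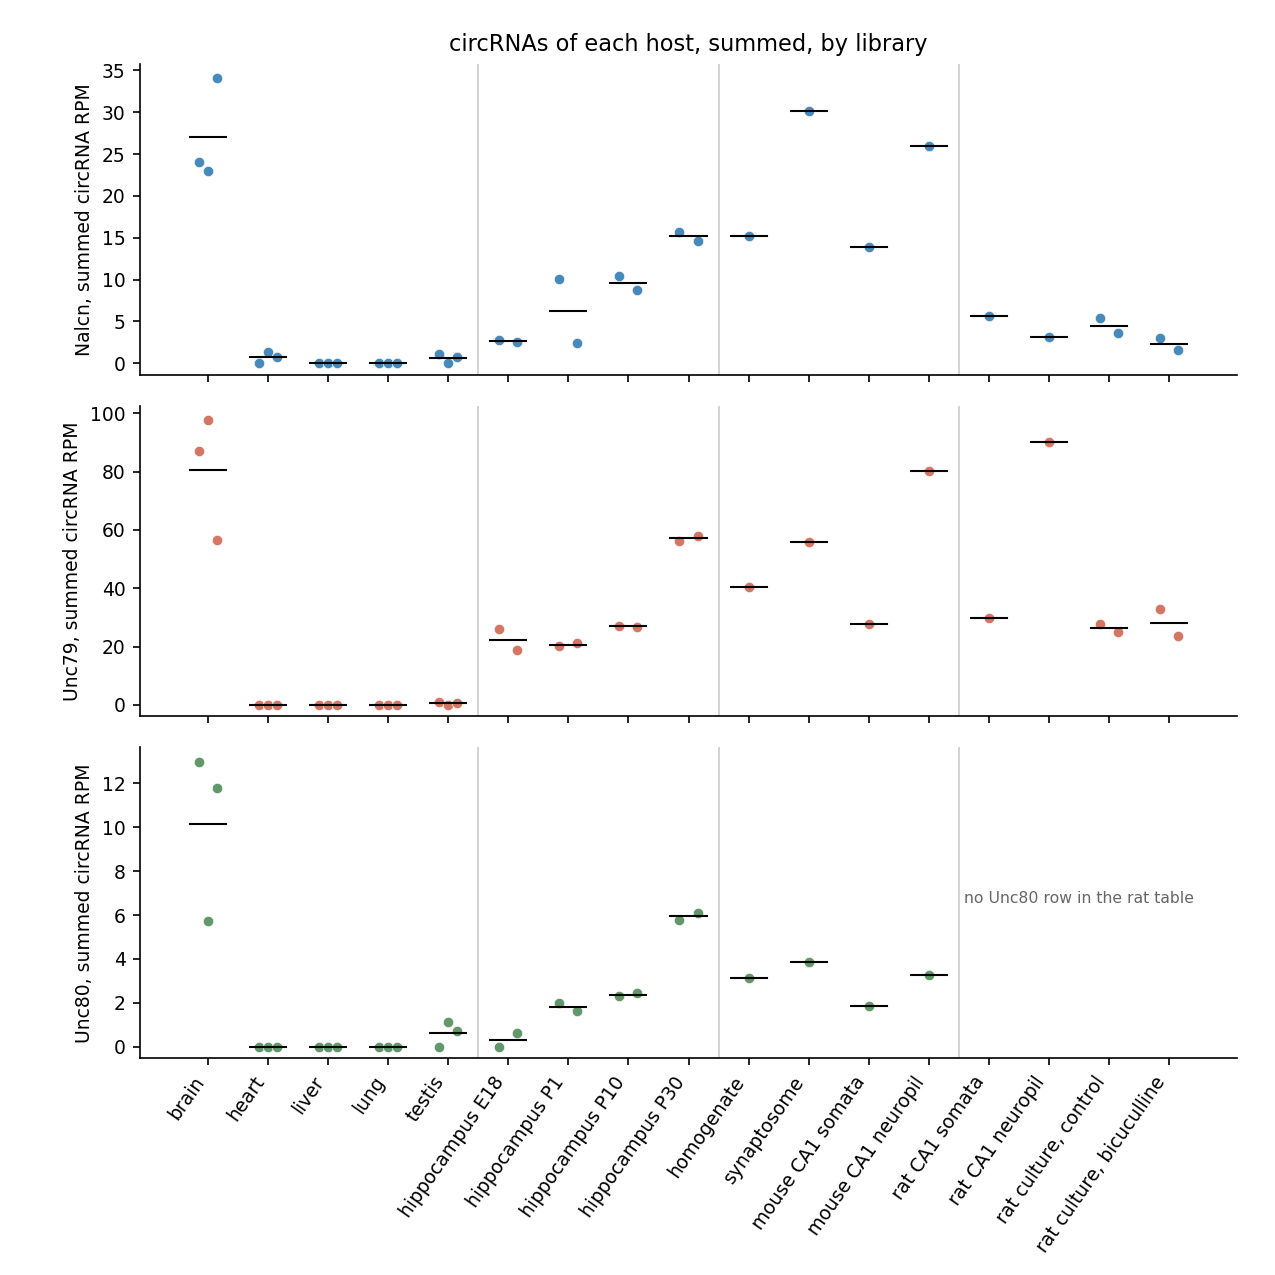
Summed circRNA RPM of each host gene in each library (points; line, group mean; linear axes of different range), with the groups ordered as for the gene levels. Unc79 circRNAs reach 97.7 RPM in brain and are listed at 0 in heart, liver and lung, and the sums of all 3 hosts are highest at P30 among the hippocampal stages.

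In the developing hippocampus Unc80 and Nalcn rose between E18 and P30, and Unc79 changed least. Unc80 had 4.57 and 4.71 TPM at E18, 7.46 and 9.39 TPM at P1, 22.4 and 24.2 TPM at P10 and 98.0 and 85.0 TPM at P30. Nalcn had 16.0 and 22.9, then 15.3 and 21.1, then 49.1 and 55.4, then 63.0 and 61.1 TPM. Unc79 had 15.0 and 21.1, then 12.1 and 18.2, then 11.9 and 14.7, then 24.1 and 25.4 TPM. Both Unc80 libraries of each stage lay above those of the stage before, the Nalcn libraries of E18 and P1 overlapped and lay below those of P10, and the Unc79 libraries of P1 overlapped those of E18 and of P10, while both of P10 lay below both of E18 and both of P30 lay above all others.

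From E18 to P30 the log2(TPM + 1) difference was 4.03 (SE 0.17; limma, adjusted p = 2.16e-07) for Unc80 and 1.65 (SE 0.21; adjusted p = 1.24e-04) for Nalcn. For Unc79 it was 0.45 (SE 0.23; adjusted p = 0.123), which did not pass. Of 15444 genes 29.5% rose and 56.3% changed, against 2 of 3 members that rose. Scaling to equal medians moved the median of all genes from 0.01 to -0.14 and left the members at 3.89, 1.50 and 0.31.

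By interval, no member passed from E18 to P1, where 1.73% of genes changed and 1.2% rose; Unc80 was at 0.73 (limma, adjusted p = 0.0703) and passed when libraries were scaled to equal medians (0.0424). From P1 to P10, where 35.2% of genes changed and 17.2% rose, Nalcn rose by 1.48 (limma, adjusted p = 8.47e-04) and Unc80 by 1.37 (4.44e-04), and Unc79 stood at -0.15. From P10 to P30, where 17% of genes rose, Unc80 rose by 1.92 (limma, adjusted p = 1.04e-04), Unc79 rose by 0.85 (0.0221) and Nalcn stood at 0.25 (0.398). Over all genes the split from P10 to P30 was 2632 higher and 1929 lower, and 1916 higher and 3314 lower with equal medians, where the median moved from 0.06 to -0.11. The Unc79 call was lost without P10 replicate 1 (0.138), P30 replicate 1 (0.0814) or P30 replicate 2 (0.108), and with no filter on low values (0.0514).

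The proportions of the 3 transcripts shifted with age. At E18 Nalcn made up 44.9% and 47.1% of the summed TPM of the 3 genes, Unc79 42.2% and 43.3%, and Unc80 12.9% and 9.67%. At P10 Unc79 made up 14.3% and 15.6% and Nalcn stood at 58.8% in both libraries. At P30 Unc80 led with 53.0% and 49.6%, beside 50.5 to 65.6% in adult brain.

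The log2 ratio of Nalcn to Unc80 went from 1.84 at E18 to 1.02, 1.13 and -0.55 at P1, P10 and P30. That of Unc79 to Unc80 went from 1.74 through 0.76 and -0.77 to -1.84, and that of Nalcn to Unc79 from 0.10 through 0.26 and 1.90 to 1.29. The exact permutation test over the 105 assignments of 8 libraries to 4 stages gave p = 0.00952 for each of the 3 pairs, the smallest it can give, and 0.00952 after adjustment over the 3 pairs. Any 2 of the ratios fix the third, so these are not 3 separate results. With a pseudocount of 0.1 TPM the same permutation test gave 0.0190 for Nalcn to Unc80, also after adjustment, and 0.0143 after adjustment for the other pairs. In every pair the P30 and E18 libraries did not overlap.

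**Figure D4:**
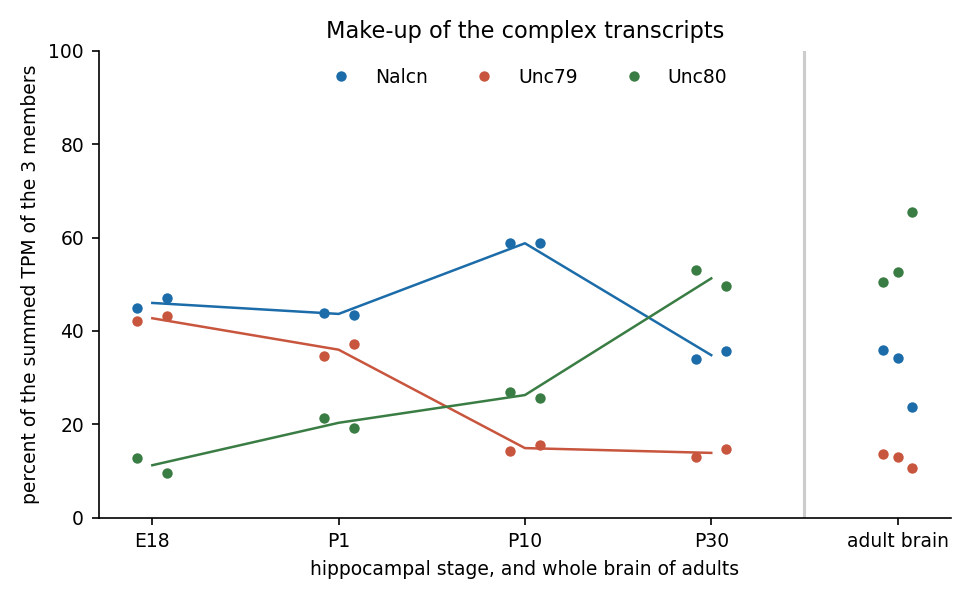
Share of each gene in the summed TPM of the 3 members, in percent, for each hippocampal library by stage (points; lines join the stage means) and, to the right, for the 3 adult brain libraries. Unc80 rises from 12.9% and 9.67% at E18 to 53.0% and 49.6% at P30 while Unc79 falls from 42.2% and 43.3% to 13.0% and 14.8%.

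Levels of cell type markers changed over the same interval, and in bulk tissue cell number and RNA per cell cannot be told apart. The 6 neuron markers summed to 383 to 455 TPM at E18 and to 3354 to 3811 TPM at P30, the 5 oligodendrocyte markers to 25.2 to 25.9 and then 8529 to 9627 TPM, the 5 astrocyte markers to 237 to 285 and then 937 to 979 TPM, and the 6 markers of immature neurons and progenitors to 725 to 914 and then 52.8 to 69.7 TPM. Their part in the results of the 3 genes was not tested.

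The circRNA sums rose with age as well. Unc79 circRNAs had 26.1 and 18.7 RPM at E18, 20.1 and 21.2 at P1, 27.1 and 26.9 at P10 and 56.2 and 58.0 RPM at P30. Nalcn circRNAs had 2.72 and 2.50, then 10.0 and 2.45, then 10.4 and 8.80, then 15.6 and 14.7 RPM. Unc80 circRNAs had 0 and 0.624, then 2.01 and 1.63, then 2.30 and 2.44, then 5.80 and 6.11 RPM. For each gene both P30 libraries lay above all 6 earlier ones.

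The P30 to E18 differences on the log2(RPM + 0.578) scale were 1.35 (SE 0.20; limma, adjusted p = 0.00826) for Unc79, 2.30 (SE 0.53; 0.0394) for Nalcn and 2.97 (SE 0.50; 0.0134) for Unc80. All 3 rose, where 5.68% of 4295 hosts rose and 6.38% changed. The total of all circRNAs was 10826 and 11493 RPM at E18 and 17782 and 18414 RPM at P30, and with equal totals the differences were 0.66, 1.66 and 2.44 and none passed (adjusted p = 0.0904, 0.157 and 0.0541). Over all hosts the split then went from 244 higher and 30 lower to 70 and 47, and the median from 0.39 to 0. Leaving out 1 library at a time left 0 to 3 of the 3 calls: without P30 replicate 2 none passed, without P30 replicate 1 or E18 replicate 1 only Unc79 did, and Nalcn also lost its call without E18 replicate 2, P10 replicate 1 or P10 replicate 2. The ratio of circRNA sum to gene level passed for none of the 3 (0.66 for Nalcn, 0.89 for Unc79, -1.06 for Unc80, with 2.8% of 4208 hosts called and 1.71% higher).

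Of single circRNAs, 24 had reads in at least 2 stage libraries, and 3 rose from E18 to P30, where 6.27% of 14200 circRNAs rose and 7.71% changed. Unc79 exons 2 to 7 had 17.4 and 11.9 RPM at E18, 17.1 and 16.3 at P1, 23.0 and 19.6 at P10 and 44.6 and 45.8 at P30, a rise of 1.61 (SE 0.21; limma, adjusted p = 0.0154). The other 2 were Unc80 circles seen at E18 in no library, chr1:66518550-66537705 with 4 and 3 reads at P30 (2.19, SE 0.40; 0.0297) and exons 24 and 25 with 2 and 1 reads (1.31, SE 0.26; 0.0360). These 2 reached the filter through the older stages and so had to differ. edgeR on the recovered reads called none of the 3, and none was called without either E18 or either P30 library. The smaller Unc79 circles stood at 0.61 for exons 5 to 7, -0.04 for exons 2 to 5 and -1.31 for exons 2 to 4, without passing.

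The leading Unc79 circle kept its lead at every stage. Its share of Unc79 back-splice reads was 65.4% at E18 (51 of 78; exact 95% interval 53.8 to 75.8), 81.8% at P1, 78.4% at P10, 79.2% at P30 (152 of 192; 72.7 to 84.7) and 87.8% in 20-week brain. Nalcn exons 2 to 6 varied more, from 56.5% at P1 (13 of 23) and 50% at P10 (18 of 36) to 25.5% at P30 (13 of 51; 14.3 to 39.6). The 2 P30 libraries differed here, with 11 of 27 and 2 of 24 Nalcn reads.

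The synaptosome library held more of the 3 transcripts than the homogenate library. Unc80 had 172 TPM against 95.7 TPM, a ratio of 1.79, Unc79 42.9 against 29.9 TPM (1.44) and Nalcn 76.3 against 68.3 TPM (1.12), where the median gene had a ratio of 0.816. With 1 library each there is no replicate check and no test. The medians beside such pairs, here and below, were taken after adding 1 TPM or 1 read to each value. The ratios of the members were taken without this. The circRNA sum of Nalcn was 30.2 RPM against 15.2 RPM (ratio 1.98, exact 95% interval 1.27 to 3.13), that of Unc79 56.0 against 40.3 RPM (1.39, 1.04 to 1.86) and that of Unc80 3.84 against 3.14 RPM (1.23, 0.367 to 4.09); the median of 903 hosts was 1.44.

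Within Nalcn, exons 2 to 6 had 29 reads in synaptosomes and 7 in homogenate (ratio of RPM 5.08, 2.18 to 13.7), while exons 16 and 17 had 10 and 11 reads (1.11, 0.424 to 2.89). The circle of exons 2 to 6 thus made up 52.7% of Nalcn reads in synaptosomes (38.8 to 66.3) and 20.6% in homogenate (8.70 to 37.9). These intervals cover counting error only, and the share of this circle also differed between the 2 P30 libraries, as given above. With 1 library each, a difference between fractions cannot be told from one between libraries. Within Unc79, exons 5 to 7 had 21 and 9 reads (2.86, 1.26 to 7.09) and exons 2 to 7 had 72 and 68 (1.30, 0.918 to 1.83). Between these libraries astrocyte markers summed to 2863 TPM in synaptosomes and 920 TPM in homogenate, oligodendrocyte markers to 10325 and 5430 TPM, microglia markers to 817 and 216 TPM, and endothelium markers to 14.6 and 84.8 TPM; their part was not tested.

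The CA1 neuropil library held more Unc79 circRNA than the somata library in both species, at gene levels that differed little. Mouse neuropil had 80.2 RPM (74 reads) and somata 27.7 RPM (30 reads), a ratio of 2.89 (1.87 to 4.58), against a median of 2.01 over 430 hosts. Rat neuropil had 90.1 RPM (86 reads) and somata 29.9 RPM (37 reads), a ratio of 3.01 (2.03 to 4.56), against a median of 1.95 over 418 hosts. The Unc79 gene had 23.7 and 22.8 TPM in mouse (1.04) and 28.6 and 23.2 TPM in rat (1.23). The interval of the mouse ratio includes the host median, and the rat interval starts near it, at 2.03 against 1.95. The host medians were taken with a pseudocount, which draws ratios towards 1, and the Unc79 ratios without one. With the pseudocount on both, Unc79 stood at percentile 84.4 of the hosts in mouse and 88.5 in rat. With 1 library each, whether these places lie beyond the spread between libraries cannot be told.

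Nalcn transcripts were lower in neuropil than in somata in both species, 49.4 against 60.8 TPM in mouse (0.812) and 68.5 against 107 TPM in rat (0.642), where the median gene stood at 1.00 and 1.06. Its circRNAs had 24 and 15 reads in mouse (1.88, 0.944 to 3.84) and 3 and 7 reads in rat (0.555, 0.0927 to 2.43), and both intervals include 1. Unc80 had 103 and 89.1 TPM in mouse (1.16). Astrocyte markers were higher in neuropil, 1876 against 723 TPM in mouse and 3649 against 1628 TPM in rat, as were microglia markers, 632 against 276 and 683 against 309 TPM, oligodendrocyte markers, 4401 against 2721 and 8718 against 4754 TPM, and endothelium markers, 241 against 85.1 and 295 against 125 TPM. Neuron markers summed lower, 2493 against 2851 and 3599 against 4387 TPM. Within that list Gad1 and Gad2 in both species, and Map2 in rat, were higher in neuropil, and the others were lower. The part of the markers of these cell types was not tested.

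**Figure D5:**
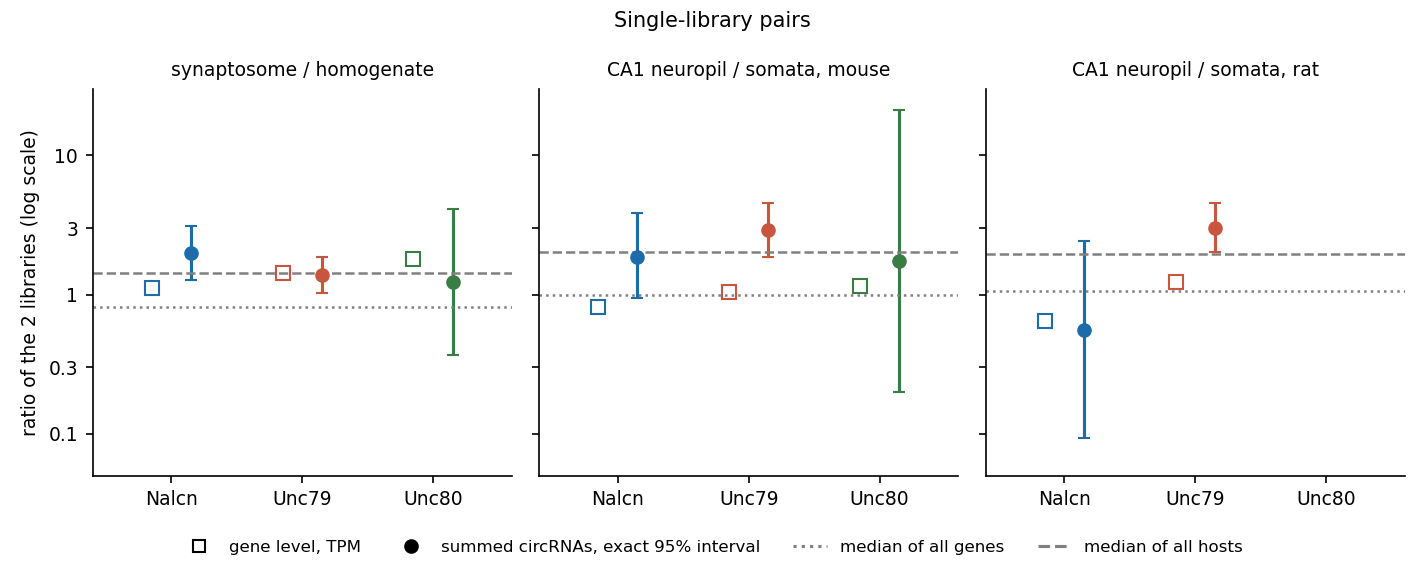
Ratio of 1 library to another on a log axis for synaptosome over homogenate and CA1 neuropil over somata in mouse and rat; squares are gene levels in TPM, circles are summed circRNA RPM with exact 95% intervals for counting error, and dotted and dashed lines mark the medians of all genes and all hosts. Unc79 circRNAs stand at 2.89 and 3.01 in neuropil over somata, and Nalcn circRNAs at 1.98 in synaptosomes over homogenate; the rat table has no Unc80 row.

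Bicuculline did not detectably move the gene levels of Nalcn and Unc79 in cultured neurons, and Unc80, with no rat row, could not be followed there. Nalcn had 63.7 and 57.1 TPM in control and 53.1 and 51.8 TPM in treated cultures, a difference of -0.20 (SE 0.13; limma, adjusted p = 0.480) without overlap. Unc79 had 23.9 and 14.8 against 16.4 and 15.1 TPM (-0.24, SE 0.26; adjusted p = 0.663). Neither passed, with 2.57% of 13341 genes called, and the unadjusted p was 0.192 and 0.378. Neuron markers summed to 3771 to 4585 TPM in control and 3959 to 4246 TPM in treated cultures. Astrocyte markers summed to 5395 to 9422 and 5504 to 6572 TPM. Microglia markers differed between the libraries of each group, at 0.148 to 41.7 and 0.295 to 39.0 TPM. Their part was not tested.

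The circRNA sums had 5.40 and 3.57 against 3.05 and 1.57 RPM for Nalcn (-0.78, SE 0.41; limma, adjusted p = 0.662) and 27.9 and 25.0 against 32.8 and 23.5 RPM for Unc79 (0.07, SE 0.23; 0.969), where 5.4% of 2445 hosts were called. The Nalcn sums rested on 2 to 6 reads a library. The Unc79 circle of exons 2 to 7 had 20.7 and 14.3 RPM in control and 21.4 and 18.8 RPM in treated cultures. Of 7 single circRNAs tested 2 passed, with 10.1% of 4120 called: Nalcn exons 2 to 7 was higher (0.94, SE 0.04; adjusted p = 0.00451) and Unc79 exons 2 to 8 (chr6:136068612-136120268) lower (-1.05, SE 0.07; 0.00670). Each rests on 1 read in both libraries of 1 group and none in the other, and edgeR, equal totals, a floor of 20 reads and every omission of a library called neither. The circRNA to gene ratio passed for none (-0.58 for Nalcn, 0.32 for Unc79), and 0% of 2422 hosts were called.

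The oligo-dT library of 14-week brain was set beside its rRNA-depleted counterpart, 1 library each and without a test. Gene levels were 27.2, 15.1 and 50.7 TPM for Nalcn, Unc79 and Unc80 against 61.8, 28.2 and 171 TPM after rRNA depletion, ratios of 0.440, 0.536 and 0.295, where the median gene stood at 0.841. Of the circRNAs 1 Unc79 read was found, against 29, 48 and 10 reads. The whole oligo-dT library held 127 back-splice reads.

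The genes that work with the complex were taken from 4 lists. Regulators of the channel, among them FAM155A, a further subunit, and GABA-B and muscarinic receptors that signal to it, were higher in brain for 10 of 10 tested of 12 listed, with Gabbr1 at 5.84, Fam155a at 5.78 and Gabbr2 at 5.40 on the log2(TPM + 1) scale. Potassium leak and inward rectifier channels, which carry the opposing current, were higher for 13 of 13 tested of 14, with Kcnk9 at 5.01, Kcnj10 at 4.55 and Kcnj9 at 4.51. HCN channels and sodium pump subunits were higher for 9 of 9. Of the four-domain sodium and calcium channels 13 of 17 tested of 21 were higher, with Scn1a at 6.71, Scn8a at 6.04 and Cacna1e at 5.32. Of all genes 45.4% were higher and 28.0% lower. The other 4 were lower, among them Scn7a, the muscle sodium channel Scn4a and the skeletal muscle calcium channel Cacna1s, named after their values were seen. The medians of the lists were 3.19, 4.35, 3.99 and 3.10, against 0.34 over all genes.

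From E18 to P30, 7 of 10 regulators rose and 1 fell, 11 of 13 potassium channels rose and 1 fell, 7 of 9 HCN and pump genes rose and 2 fell, and 9 of 15 four-domain channels rose and 1 fell. Of all genes 29.5% rose and 26.8% fell. Those with the smallest p were Gabbr2 at 2.27, Chrm3 at 2.21 and Gabbr1 at 1.43, Kcnj4 at 4.69, Kcnj6 at 4.20 and Kcnj9 at 3.88, the pump subunits Atp1b1 at 3.54 and Atp1b2 at 2.75, and Scn8a at 3.54, Scn1a at 2.99 and Scn2a1 at 2.75. The genes that fell were Ntsr1, Kcnk10, Hcn3, Hcn4 and the embryonic channel Scn3a, named after their values were seen. List medians were 0.95, 1.95, 1.87 and 0.87, against 0.01 over all genes. After bicuculline none of 8 regulators, 1 of 13 potassium channels, none of 9 HCN and pump genes and none of 13 four-domain channels tested passed, a share near the 2.57% of all genes. The 1 gene was the inward rectifier Kcnj2, which rose by 2.25 (SE 0.19; limma, adjusted p = 0.0104) and was named after its value was seen.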

How the data were processed

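The submitters' processing notes name mm9 and rn5 as builds, and as tools Cufflinks 2.2.1, TopHat2 2.0.6 and CASAVA 1.8.2; a circRNA caller was not given in the sources used here. The authors deposited TPM per gene and RPM per back-splice (the total behind the RPM is not stated), and lists of circRNAs with exon blocks and a score, which the authors deposited and which was not used. All RPM values (100%) were whole multiples of 1 read within 0.1, and reads were recovered from them. Strand-specific counting is not stated.

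Genes with 1 TPM or more, and circRNAs or host sums above 0, in at least 3 tissue or 2 other libraries were fitted with limma 3.58.1 (R 4.3.3) on log2 values, with adjustment over all features. Pseudocounts were 1 TPM, or 1 read (1.18, 0.578 and 0.838 RPM in tissues, stages and cultures). edgeR 4.0.16 on recovered reads, other pseudocounts, filters and scalings, a replicate block and omission of each library were alternatives. Intervals are exact (scipy 1.17.1). The fits were also run on simulated data with known changes and a fixed spread, which need not match the spread of these libraries. The members and lists were chosen with earlier results of these data known. Named were the 3 genes, the 5 circRNAs with most reads per gene and species, those called or matched between species, up to 3 genes per list and fit by smallest p, and the 5 genes most alike each member. A long-read P30 sample was not analysed here. Some genes and a sequence that this rule would name are not reported here.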

Additional observations from a re-analysis of the deposited data

Results flagged for a closer look

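The summed Nalcn circRNAs pointed in opposite directions in the CA1 layers of the 2 species: neuropil over somata was 1.88 in mouse (24 and 15 reads) and 0.555 in rat (3 and 7 reads). With 1 library per layer and species the difference was not tested, and both exact intervals, 0.944 to 3.84 and 0.0927 to 2.43, include 1.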

How the results depend on the processing

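Counts of called members held within 1.5 times of the reported ones under 134 of 160 alternatives. A count of 0 that stayed at 0 was taken as held. The brain circRNA sums were included, where Unc79 and Unc80 had to differ, so this share is no measure of how firm the calls are. No difference that passed, as reported or under the alternative, changed its direction. Changes of sign in differences that passed in neither were not counted. The 7 brain circRNAs became 2 with a floor of 20 reads, 3 in 20-week libraries, 3 in these with a replicate block, and 4 to 7 when 1 library was left out. The 3 circRNA sums higher at P30 became 0 with equal circRNA totals and 0 to 3 when 1 library was left out. The 3 single circRNAs higher at P30 became 1 with a floor of 20 reads, 0 with edgeR, 1 with equal totals, 1 with the replicate block and 0 to 2 when 1 library was left out. The circRNA to gene ratio gave 1 call with a pseudocount 5 times larger (Unc80, -2.56). The 2 circRNAs called after bicuculline became 0 with a floor of 20 reads, 0 with edgeR, 0 with equal totals and 0 when any library was left out. The cause was not tested. Counts over all features moved too. Host sums called in brain went from 1888 to 960 (20 reads), 878 (edgeR) and 517 (equal totals), and single circRNAs from 2827 to 655, 1590 and 1010. From E18 to P30, host sums went from 274 to 469 (20 reads) and 117 (equal totals), single circRNAs from 1095 to 500 (20 reads) and 107 (edgeR), and ratios from 118 to 4, 1388 and 35 (smaller pseudocount, larger pseudocount, 20 reads). After bicuculline, genes went from 343 to 78 with no filter, host sums from 132 to 1 (20 reads), 0 (edgeR) and 0 (equal totals), and single circRNAs from 415 to 1, 0 and 0. From E18 to P1, genes went from 267 to 17 with no filter.

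Equal replicate numbers are no stated pairing: deviations of same-numbered libraries correlated at 0.0555 to 0.351 over the stages, 0.0169 to 0.0958 over the 20-week tissues and 0.588 in the cultures. With the number as a block, Unc79 passed from E18 to P30 (adjusted p = 0.0400) and Unc80 from E18 to P1 (0.0390), the Unc80 circles chr1:66518550-66537705 (0.0641) and exons 24 and 25 (0.0732) did not pass, and no other named result changed its call. The block moved the genes called after bicuculline from 343 to 3298, its host sums from 132 to 0, and the genes called from E18 to P1 from 267 to 657. Depth limits single circRNAs: 13 of 19 mouse Nalcn circRNAs had under 10 reads.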

Other observations

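The likeness of other genes to each member was measured on the log2(TPM + 1) scale. Over the 27 rRNA-depleted mouse libraries, Nalcn was closest to Scn2a1 (Pearson r = 0.994), Pcsk2, 6430704M03Rik, Sv2b and Cntn3, Unc79 to Kcnb2 (0.989), Nrcam, Wasf3, Kcnk1 and Ctnnd2, and Unc80 to Slc12a5 (0.991), Pacsin1, Gpr37, Cyp46a1 and Pcnxl2. The other members ranked between 155 and 1125 of 17587 genes. These libraries fall into brain and other tissues, so the values describe a shared contrast, and they are given with no test.

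Over the 8 stage libraries, Nalcn was closest to Kank1 (0.996), 1600014C10Rik, Herc3, Elmod1 and Ap3m2, Unc79 to Tmem131 (0.993), Map3k13, Rbbp5, Kif21a and Rasal2, and Unc80 to Clip4 (0.998), the myelin gene Cnp, Myh14, Trpc6 and the sodium channel Scn8a. Here the members were less alike: r was 0.903 between Nalcn and Unc80, 0.511 between Unc79 and Unc80 and 0.395 between Nalcn and Unc79.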
